A study of Drosophila melanogaster with 4 samples.

Results

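The brightest male-limited transcripts of Drosophila melanogaster whole bodies were taken as the 200 probes with the highest mean male signal among probes that were far brighter in males than in females. The members were chosen by measured values of the same 4 arrays described below. A probe had to carry a FlyBase transcript identifier (FBtr), to be well above background on both male arrays by the scanner software's own mark, and to have a geometric mean male signal at least 16 times the geometric mean female signal. Signal is the background-subtracted intensity of a probe divided by the median of its array, so that 1 array median is the level of the middle probe. Of 32162 probes, 21498 carried an FBtr identifier, 18976 of these were well above background on both male arrays, and 2315 (12.2%) also passed the limit of 16 times. The 200 brightest of them lie on 165 transcripts. Because the comparison of males with females chose the members, the sex difference is given as a description and was not tested.

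The flies were wild type of strain w1118, 10 days old, and RNA was extracted from whole bodies of pooled flies. HN-treated flies had developed under hyperbaric normoxia (HN, a pressure of 2 atmospheres absolute with oxygen kept normoxic) from the fertilized egg until eclosion, and control (Ctrl) flies had developed without it, all at 25 °C and 50% relative humidity. The 4 groups, Ctrl female, HN female, Ctrl male and HN male, had 1 one-color array each, so that differences between groups rest on single pools and no p-value is given. The comparison of HN with Ctrl males asks whether prenatal HN left a mark on bright transcripts that are limited to males, and the comparison in females shows what remains of the same probes in the other sex.

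Male-limited transcripts of adult flies come mainly from the reproductive tract. The testis transcribes a large set of genes in spermatocytes and spermatids that few other tissues use, the paired accessory glands secrete seminal fluid proteins in large amounts, and the ejaculatory duct and bulb add further secreted proteins. Seminal proteins transferred at mating are known to alter egg laying, feeding and remating of the female. Whole-body RNA holds all of these organs together, and in such bulk samples fewer cells of a type and less RNA per cell cannot be told apart.

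No member transcript has a gene symbol in the files or in the RefSeq gene table, so members are given by transcript identifier, without a role and without a sequence. The organ of origin was therefore not assigned. Few marker genes were named on the arrays, 2 of 47 for testis and sperm, 0 of 52 for the accessory gland, 1 of 12 for the ejaculatory duct and bulb and 1 of 14 for the ovary, eggshell and female fat body, and these lists were not used. Of the named ones, Dup99B, a seminal peptide gene of the ejaculatory duct, had a signal of 18.7 array medians in Ctrl males and 18.5 in HN males. The spermatid gene hale was at 6.37 and 6.52, and the spermatid gene soti was well above background on no array. Vm34Ca, which encodes a protein of the eggshell's vitelline membrane, stood at 99.6 array medians in Ctrl females and 107 in HN females and was not well above background in either male pool.

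Members spanned more than an order of magnitude in males. Their signal in Ctrl males was 58.7 at the lowest, 117 at the median and 907 at the highest, and in HN males 53.4, 103 and 827. In Ctrl females the same probes had a lowest signal of 0.0222, a median of 0.0312 and a highest of 15.8, and in HN females 0.0213, 0.0352 and 19.8. No member's female signal reached the lowest male signal of any member, which the limit of 16 times and the choice of the brightest probes all but fix in advance. Among all FBtr probes, 975 had a mean male signal at or above that of the dimmest member, and 20.5% of these were members. The 10 brightest members held 17.9% of the summed member signal in Ctrl males.

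**Figure D1:**
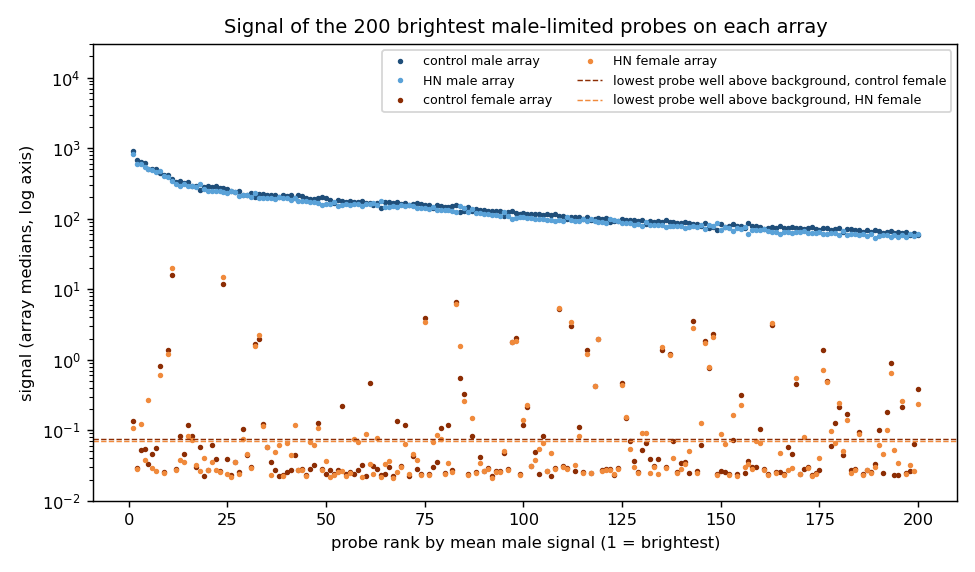
Signal of the 200 members on each of the 4 arrays, in array medians on a log axis, against their rank by mean male signal; dashed lines mark the lowest signal of any probe well above background on each female array (0.0742 in Ctrl and 0.0695 in HN females). Both male arrays run close together from 907 down to 53.4, while most female points lie below the dashed lines and the highest reach 15.8 and 19.8.

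The brightest member was FBtr0075115, with a signal of 907 array medians in Ctrl males and 827 in HN males, against 0.134 and 0.108 in the females, where it was not well above background. FBtr0081054 followed with 673 in Ctrl and 590 in HN males. FBtr0072455 had 645 and 595 with its brighter probe and 499 and 463 with its other one. All of these probes were brighter in Ctrl than in HN males after division by the array median, and none was well above background in a female pool. Without that division, each of the 10 brightest probes was higher in HN males. FBtr0084914, measured on 10 spots per array, had 607 in Ctrl and 541 in HN males. FBtr0072454, also on 10 spots, had 508 and 498. Neither of these was well above background in females. The remaining 4 of the 10 brightest probes include the 3 that were detected in at least 1 female pool. FBtr0300319 stood at 514 in Ctrl and 512 in HN males and at 0.0333 and 0.273 in the females, well above background in HN females only. FBtr0078172 was at 444 in Ctrl and 473 in HN males, and at 0.803 and 0.606 in Ctrl and HN females. It was the single probe of the 10 brightest that was higher in HN males after division by the array median. FBtr0091954 was at 412 and 384 in males and 1.37 and 1.22 in females. The fourth was a second probe of FBtr0081054, at 421 and 401 in males.

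The limit of 200 cuts through a dense stretch of signals. The last probes inside it had mean male signals of 60.4 for FBtr0305907, 60.2 for FBtr0073445, 60.0 for FBtr0079816, 59.7 for FBtr0073281 and 59.3 for FBtr0070755. The first outside it had 59.1 for FBtr0080872, 58.9 for both FBtr0080253 and FBtr0080522, 58.6 for FBtr0080888 and 58.5 for FBtr0078003. The rule ranks the mean of the male arrays only, and the last of these, FBtr0078003, was at 71.4 in Ctrl and 45.7 in HN males, a log2 ratio of -0.64, lower by more than 1.5-fold just outside the limit.

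Most members were not detected in females. Of the 200, 146 were well above background on no female array, 16 on 1 array (8 in Ctrl females only and 8 in HN females only) and 38 on both. The 54 members seen in at least 1 female pool are 27.0% of the members, beside 87.8% of all FBtr probes well above background in both male pools and 19.1% of the other 2115 male-limited probes. The limit of 16 times favours probes that are dim in females, so these shares are descriptions.

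For a probe that is not well above background on a female array, a bound took the place of its level there, namely the lowest signal that any detected probe had on that array, or the probe's own signal where that was larger. With this bound, 162 members were at least 686-fold to at least 8781-fold brighter in males, with a median bound of 1562-fold. The highest bound belonged to FBtr0081054. The 38 members measured on all arrays had male over female folds from 19.5 to 868, with a median of 101, and 18 of them were under 100-fold. How low a bounded fold can be is largely set by the members' brightness in males and the detection limit in females. The ranges of measured and bounded folds overlap from 686 to 868 and are not compared. A bound also does not order the probes that share it.

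FBtr0076485 had the largest measured fold, 868, with signals of 118 in Ctrl and 106 in HN males and 0.118 and 0.141 in Ctrl and HN females. This fold holds for 1 probe of the transcript only. Its other probe, no member, had 59.7 and 64.1 in males and 24.7 and 25.3 in females, a fold of 2.48. FBtr0078172 followed with folds of 657 and 468 on its pair of probes, and FBtr0083184 with 598 and 500. Either probe of the latter transcripts thus gave a fold well over the median of 101.

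At the other end stood FBtr0086343, with the highest female signal of any member. It had 370 array medians in Ctrl males, 347 in HN males, 15.8 in Ctrl females and 19.8 in HN females, a fold of 20.3. Its second probe, with 270, 243, 11.7 and 14.8 in the same order, gave 19.5. Both probes place this transcript well above the array median in females too, although it counts as male-limited by the rule. FBtr0082142 (110 and 96.6 in males, 5.17 and 5.35 in females) had a fold of 19.6. FBtr0302725 (76.0 and 64.6 in males, 3.12 and 3.35 in females) and FBtr0077787 (154 and 123 in males, 6.51 and 6.18 in females) both had 21.7. In all, 19 members were above the array median in both female pools.

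No member passed 1.5-fold between HN and Ctrl males. The study reports genes past this limit with statistical significance, and here the fold alone was used. Of the 200 members, 0 were higher and 0 lower by more than 1.5-fold, beside 2.20% higher (418 probes) and 1.45% lower (276 probes) of the 18976 FBtr probes detected in both male pools. The members' log2 ratios of HN over Ctrl ran from -0.56 to 0.35, all inside the limit of 0.58 on this scale. As a measure of technical error only, the SD of this ratio between repeat spots of a member was 0.0752 on the log2 scale (98 members with more than 1 spot), and the SD over the members was 0.132. Repeat spots share an array and say nothing of the spread between pools of flies.

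**Figure D2:**
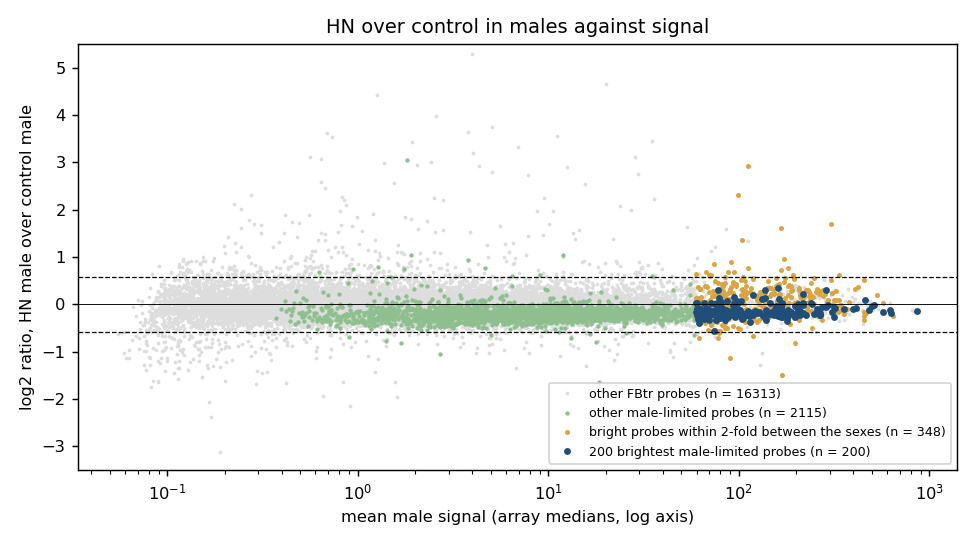
Log2 ratio of HN over Ctrl males against mean male signal (array medians, log axis) for FBtr probes detected in both male pools (well above background on each array); dashed lines mark 1.5-fold (0.58). The 200 members (dark blue) lie between -0.56 and 0.35, mostly just below 0 after division by the array median (without scaling, 197 are above 0), while bright probes within 2-fold between the sexes (n = 348, amber) scatter past both lines.

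Within this narrow range most members were slightly lower in HN males. After division by the array median, 170 of 200 members were below Ctrl and 30 above, with a median log2 ratio of -0.17 and quartiles of -0.22 and -0.09, so that the median member was 10.8% lower in HN males. The median of all FBtr probes was -0.08, and 65.3% of them were below 0. The sign of the members' shift depends on the scaling. The median signal of the HN male array was 453 against 356 on the Ctrl male array, a log2 ratio of 0.35, and without any scaling 197 members were above 0, with a median of 0.18 beside 0.27 for all FBtr probes. With another background correction (normexp), the median was -0.0074 and 104 members were below 0. The Ctrl male array was also scanned in a separate run from the other 3 arrays, so that scan and treatment cannot be told apart in males.

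The members' position relative to other probes of like brightness changed little under the settings that could move it, but depended on which probes were taken. The 348 FBtr probes that were at least as bright in males as the dimmest member and within 2-fold between the sexes had a median of 0.05, with 44.5% below 0. The members' median was 0.22 lower on the log2 scale (difference -0.22). Settings that only divide an array by another value cannot change this difference, nor can a floor of 5 at this brightness. It was -0.20 with quantile scaling and -0.20 with normexp. Without outlier spots it was -0.21, and with the authors' table of intensities -0.22. Against all 775 FBtr probes of this brightness that were not male-limited, whose median was -0.04 with 56.8% below 0, the difference was smaller, -0.12. It was -0.12 with quantile scaling and with normexp too. Relative to all FBtr probes the members were lower by 0.08 (difference -0.08), with 151 members below the median of all, but this difference was 0.01 with normexp. The spread within each set also differed. The interquartile range was 0.129 for the members and 0.155 for the other male-limited probes, so a narrow spread was not particular to the members. It was 0.418 for the bright probes of both sexes and 0.271 for all FBtr probes. Among the bright probes of both sexes, 20 were higher and 7 lower past 1.5-fold.

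**Figure D3:**
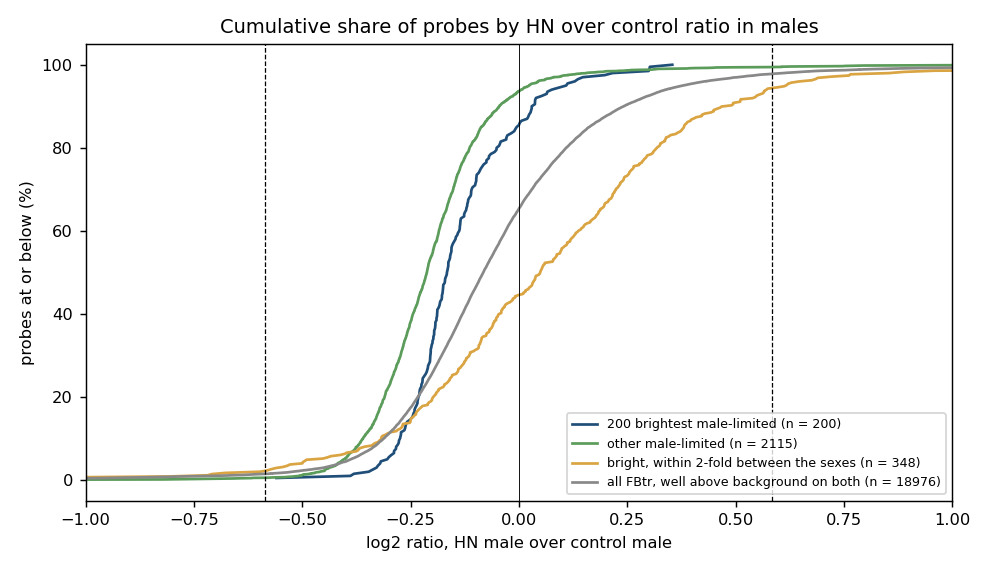
Cumulative share of probes (%) at or below each log2 ratio of HN over Ctrl males, after division by the array median, for the members, the other male-limited probes, the bright probes within 2-fold between the sexes and all FBtr probes; dashed lines mark 1.5-fold. The curves of the male-limited sets are steep and cross the middle at -0.17 and -0.21, that of the bright probes of both sexes is flat and crosses at 0.05; without scaling the members' median is 0.18.

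The same displacement was seen down the whole range of male-limited probes. The other 2115 male-limited probes had a median of -0.21 with 93.6% below 0, and 12 were higher and 11 lower past 1.5-fold. In bands of 200 by mean male signal, the median was -0.17 for the members and -0.19 for the next 200 (signal 30.0 to 59.1). The lowest median of any band was -0.24, for ranks 1801 to 2000 (1.98 to 3.00). The medians did not fall steadily, with -0.19 for ranks 801 to 1000 and -0.22 for ranks 2001 to 2200. Among the members themselves, the brightest 50 had a median of -0.13 with 43 below 0, and the dimmest 50 had -0.19 with 45 below 0. These medians hold for values divided by the array median and would all be 0.35 higher without it.

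The member that was lowest in HN males was FBtr0072322, at 88.2 array medians in Ctrl and 59.9 in HN males, a log2 ratio of -0.56 with a repeat-spot SD of 0.0384. FBtr0072599 followed with 70.0 and 53.4 (-0.39), and FBtr0081909 with 129 and 99.2 (-0.38). Each of this pair has another probe that is no member. That of FBtr0072599 was at -0.32, while that of FBtr0081909 was at -0.14 and was detected in neither female pool. FBtr0081586 had 202 and 159 (-0.35) and the dimmest of the 3 probes of FBtr0084611 had 77.8 and 61.6 (-0.34). The other probes of FBtr0084611 were at -0.22 each, nearer to the median of the members. Of these 5 probes, only FBtr0072322 and FBtr0072599 had repeat spots, so the others have no spread of their own. The ratios hold after division by the array median and would be 0.35 higher without it. All 5 were picked as the lowest of 200 members and fell short of 1.5-fold. Only FBtr0081909 among them was well above background in females, at 1.78 in Ctrl and 1.81 in HN.

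Of the members that were higher in HN males after division by the array median, 5 exceeded 0.2 on the log2 scale. FBtr0074843 stood at 141 in Ctrl and 180 in HN males (0.35), FBtr0079684 at 123 and 152 (0.30), and FBtr0072943 at 256 and 315 (0.30). FBtr0075038 stood at 69.5 and 85.6 (0.30) on 1 probe and at 110 and 126 (0.20) on its other. One probe of FBtr0091954 went from 200 to 232 (0.22), while its brighter probe was at 412 and 384 (-0.10), so that this transcript had no single direction. Of the 5 probes above 0.2, only that of FBtr0091954 had repeat spots, so the others have no spread of their own. All 5 were picked as the highest of 200 members. The 30 members above 0 lie on 25 transcripts. Their median mean male signal was 110.2 array medians against 111 for those below 0, and 30.0% of them (9) were detected in females beside 26.5% (45) of those below 0.

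Several probes on a transcript give a check within the arrays. Of the 165 transcripts, 133 had 1 member probe, 29 had 2 and 3 had 3. On the 32 transcripts with several, all member probes were lower in HN males on 23, all were higher on 5 and the signs differed on 4, after division by the array median. The SD of the log2 ratio between member probes of a transcript was 0.0765, about that between repeat spots, and the widest range, 0.31, was that of FBtr0091954. Levels differed more than ratios. The brightest member probe of a transcript was 1.01 to 3.98 times as bright as its dimmest, with a median of 1.33 times, and the highest value was that of FBtr0081054, whose probes had mean male signals of 632, 411 and 159. Probes differ in their response to the same RNA, so that these levels do not compare amounts between probes.

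**Figure D4:**
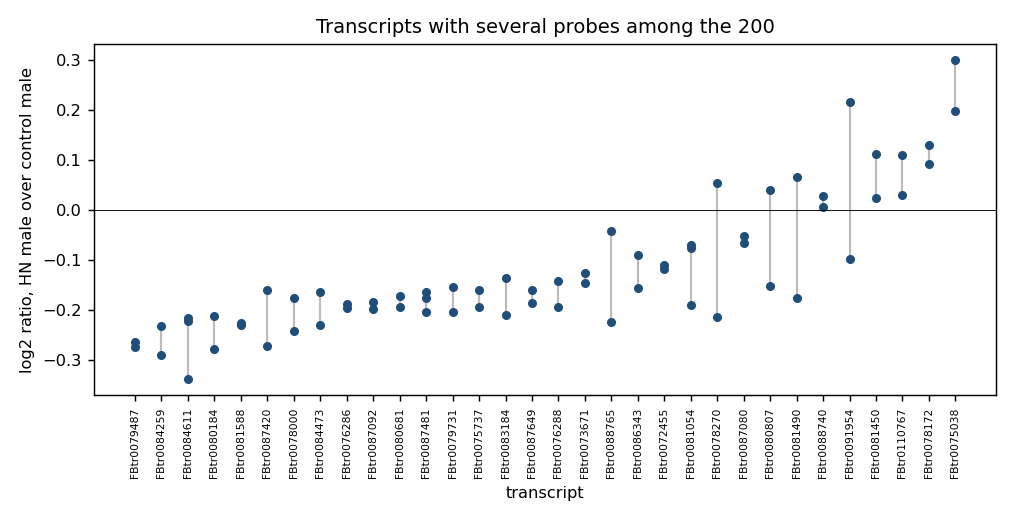
Log2 ratio of HN over Ctrl males, after division by the array median, for each member probe (point) of the 32 transcripts with several member probes, ordered by their mean; grey lines join probes of a transcript. On 23 transcripts all points are below 0 and on 5 all are above, and FBtr0091954 has the widest range, 0.31.

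A further 49 probes on 38 of these transcripts were not members. All 49 were well above background on both male arrays and 47 passed the limit of 16 times, so that most missed membership by brightness alone. Their mean male signals ran from 0.243 to 61.9 with a median of 11.8. After division by the array median, 47 of the 49 were lower in HN males, with a median of -0.22, and 0 passed 1.5-fold. Without it their ratios would be 0.35 higher. Of the other 2115 male-limited probes, which include those past 16 times here, 93.6% were below 0. The widest gap was on FBtr0075135, where the member probe had a mean male signal of 86.0 and the other probe 0.243.

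On the female arrays the members were near the lower end of the signal, and the comparison of HN with Ctrl females covers the 54 that were well above background on at least 1 array. Of these, 5 (9.26%) were higher and 7 (13.0%) lower past 1.5-fold in HN females, beside 2.91% higher and 2.62% lower of 17577 FBtr probes compared the same way. The shares depend on brightness. Among probes with a mean female signal under 0.5 array medians, 10 of 29 members (34.5%) were past 1.5-fold in either direction, beside 563 of 2383 FBtr probes (23.6%). At 0.5 or more, 2 of 25 members (8%) were, beside 408 of 15194 FBtr probes (2.69%). Dim probes were thus past the limit more often in both sets, and the part of low signal in the members' shares was not tested.

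Of the 38 members well above background on both female arrays, 1 was higher and 3 were lower past 1.5-fold, beside 1.76% higher and 1.60% lower of 16899 FBtr probes detected in both female pools. FBtr0079684, measured on 1 spot, went from 0.545 array medians in Ctrl to 1.57 in HN females, a log2 ratio of 1.52. It was also among the members highest in HN males, at 123 and 152 (0.30), though there within 1.5-fold. FBtr0081628 went from 1.38 to 0.72 (-0.93), FBtr0078737 from 0.179 to 0.0993 (-0.85) and FBtr0070755 from 0.382 to 0.237 (-0.69). In males these 3 probes had log2 ratios of -0.29, -0.14 and 0.03. The other probes of FBtr0081628 and FBtr0070755 were well above background on neither female array. Next came FBtr0076235 and 1 probe of FBtr0079731, both at -0.46 in females, while the other, brighter probe of FBtr0079731 was at -0.11. On the other side, FBtr0086343, the member brightest in females, had 0.33 on both of its probes, FBtr0305907 had 0.29 and FBtr0100190 had 0.28. The member probes of these last 5 transcripts stayed within 1.5-fold. The other probe of FBtr0076235, no member, was detected in both female pools. It was at 0.395 in Ctrl and 0.221 in HN females, lower by more than 1.5-fold.

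Among the 16 members well above background on 1 female array only, the ratio is a bound. Past 1.5-fold were 4 higher and 4 lower (25% each), beside 31.4% higher and 27.9% lower of 678 FBtr probes detected in 1 female pool only, so that the members' shares did not exceed the background. In HN females, 4 were higher by at least 1.88 (FBtr0300319), 1.14 (FBtr0077329), 0.86 (FBtr0110767) and 0.79 (FBtr0078270) on the log2 scale. The 4 lower ones had bounds of -2.75 (FBtr0077561), -1.68 (FBtr0080270), -0.89 (FBtr0085598) and -0.77 (FBtr0073467). Each of these values is that of 1 probe. The other probes of FBtr0077329, FBtr0110767, FBtr0078270 and FBtr0077561 were detected in neither female pool. Of the pair with the widest bounds, FBtr0300319, measured on 1 spot, was at 0.0333 in Ctrl and 0.273 in HN females. FBtr0077561 was at 0.468 in Ctrl and 0.0328 in HN females. Its other probe, detected in neither female pool, was at 0.0325 in Ctrl and 0.0654 in HN females. In males the pair of members differed little between Ctrl and HN, with 514 and 512 for FBtr0300319 and 166 and 161 for FBtr0077561.

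Named RNAs of males that are no members did not move alike in the females. The male-specific dosage compensation RNA lncRNA:roX1 was lower in HN than in Ctrl females on all 4 of its probes that passed the same limits as the members, at 2.96 and 0.399 array medians, 1.64 and 0.306, 1.66 and 0.287, and 0.272 and 0.123 in Ctrl and HN, each well above background on both arrays. Dup99B was at 0.0221 in Ctrl and 0.110 in HN females, well above background in HN only. The 54 members seen in females had a median log2 ratio of -0.03 there. The part of male material in a female pool in these values was not tested.

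**Figure D5:**
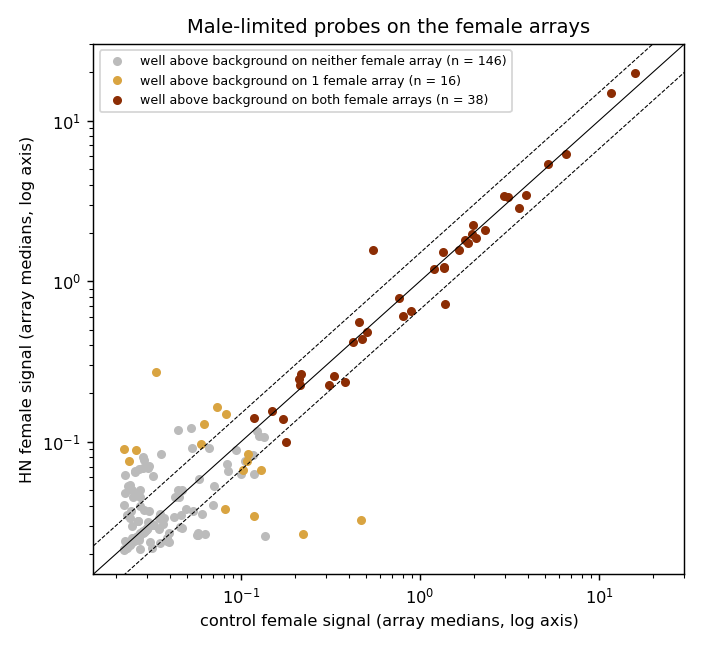
Signal of the 200 members in HN against Ctrl females (array medians, log axes), colored by the number of female arrays on which they were well above background; the solid line marks equal signal and dashed lines 1.5-fold. The 38 members detected on both arrays follow the line up to 15.8 and 19.8, with FBtr0079684 above it, and the 146 detected on neither form the cloud at the lower left.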

How the data were processed

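The authors deposited, for each of 4 arrays, the spot intensities of Agilent Feature Extraction, of which the processed signal (background-subtracted, not scaled between arrays) was used, and a table with 1 intensity per probe, which was within 0.1% of the mean processed signal for 98.98% to 99.3% of values. In the methods, a floor of 5 and scaling of each array to its 50th percentile follow, and the deposited values hold neither. Here the spots of a probe were averaged and divided by the array's median over all non-control probes. A probe counted as well above background where at least 50% of its spots did. Array medians were 192 and 180 in Ctrl and HN females and 356 and 453 in Ctrl and HN males, 67.8% to 79.1% of probes were well above background, and no spot was saturated. Of the members' spots, 7 over the 4 arrays carried outlier marks. All arrays lie on 1 slide, read in 2 scans. The number of arrays, 1 per group, limits the precision, and no test was run.

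The members and lists were chosen with earlier results of these data known. Transcripts named are the 10 brightest members, the 5 with the largest measured and the 5 with the smallest male over female ratio, the 5 highest and 5 lowest in HN over Ctrl in each sex among members well above background on both arrays, the 5 on either side of the limit of 200, and members sharing a transcript. FBtr0077561, FBtr0080270, FBtr0085598, FBtr0073467, FBtr0077329, FBtr0110767, FBtr0078270 and FBtr0075135 were chosen after their values were seen. Symbols came from a RefSeq table of the Release 6 assembly, matched by accession for 393 probes (345 genes). The FBtr identifiers of 33 transcripts on the array had a symbol there, none of them members. Promoters and probe sequences were not used here.

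Alternatives were the 75th percentile, no scaling, quantile scaling, a median over probes detected in both males, normexp (offset 50, on the median spot and background signals, since mean spot signals were not used here), log2 means without outlier spots, a floor of 5, the authors' table of intensities, 8 or 32 times between the sexes, 2-fold for HN and stricter detection. Python 3.11.15, pandas 2.3.3, numpy 2.4.6, R 4.3.3 and limma 3.58.1 were used. The selection and calls were tested on simulated data.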

Additional observations from a re-analysis of the deposited data

Results flagged for a closer look

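Probes with identifiers other than FBtr were outside the rule, and 317 of them passed the same limits of detection and of 16 times between the sexes. Of these, 25 were at least as bright as the dimmest member, and the highest mean male signal was 273 array medians. In HN males 277 of the 317 were lower than in Ctrl after division by the array median, with a median log2 ratio of -0.20.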

How the results depend on the processing

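Over 9 results, 73 values were computed under alternatives. Of these, 61 kept their direction and stayed within 1.5 times (counts) or 1 SD of repeat spots (medians), 11 moved and 1 changed sign. The 61 include differences from the bright probes that another array divisor cannot change. Within that SD, the members' median in males still shrank by over 1.5 times, to -0.11 with the 75th percentile and -0.10 with a median over probes detected in both males. Chosen anew, the members shared 187 (normexp) to 200 probes with the 200 described. Without scaling, 4 members were higher past 1.5-fold in HN males, the members' median log2 ratio in males was 0.18 and 3 members were lower; the array median alone accounts for this, since it adds 0.35 to every ratio, all FBtr probes included. With normexp, the median in males was -0.0074, 104 members were lower in HN males, and in females 2 members were higher and 2 lower past 1.5-fold; the cause was not tested. In females the counts of 5 higher and 7 lower became 3 higher with the authors' table of intensities, 3 higher and 2 lower at a 2-fold limit, and 1 higher and 3 lower among members well above background on both arrays. With every spot required to be well above background, 40 rather than 54 members were detected in females. No paired analysis was possible because each group has 1 array. Low signal limits the female comparison, and 1 array per group limits all.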

Other observations

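The array's RefSeq identifiers show named transcripts of the same kind. Of them, 57 probes from 45 genes passed the same limits, 19 of long noncoding RNAs, 10 of antisense RNAs and 16 of protein-coding genes, and 52 of the 57 probes were lower in HN males after division by the array median (median log2 ratio -0.23). The 7 that were as bright as the members lie on 5 genes. The noncoding RNA lncRNA:CR32658 had mean male signals of 135, 118 and 112 on its 3 probes, the gene CG2127 had 110, lncRNA:CR32661 had 89.3 and lncRNA:CR43279 had 80.2. The fifth was lncRNA:roX1, an RNA of the complex that raises transcription from the male X chromosome, at 89.6 in Ctrl and 85.2 in HN males.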
